A study of Mus musculus with 8 samples.

Results

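Transcripts of 10 genes of MHC class I antigen presentation were followed in NMuMG, a wild-type epithelial cell line from normal mouse mammary gland, after exposure to BRM014 or to its vehicle DMSO. BRM014 blocks SMARCA4 and SMARCA2, the ATPases that power SWI/SNF chromatin remodelling. The 10 genes (H2-K1, H2-D1, B2m, Tap1, Tap2, Tapbp, Psmb8, Psmb9, Nlrc5 and Erap1) were listed by symbol, and all 10 were found among the 21240 genes of the count table. They were chosen with earlier results of these data known. The 4 groups were BRM014 for 30 h, DMSO for 30 h, BRM014 for 6 h and DMSO for 6 h, with 2 libraries each. No dose of BRM014 is stated in the labels. All groups shared medium with serum and insulin, and none was described as carrying an added gene or deletion. The libraries are called biological replicates, with no word on whether they came from separate cultures, so p-values measure the spread between these libraries, which may be technical. Library totals ran from 17859693 to 29955366 counts. Levels are CPM, counts scaled to a common library size with TMM factors, and differences are log2 fold changes ± the standard error from the edgeR fit, with 2 libraries against 2.

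MHC class I molecules display fragments of cellular proteins on the surface of nearly all nucleated cells, where cytotoxic T cells and natural killer cells read them. A heavy chain, here H2-K1 or H2-D1, pairs with the shared light chain beta-2 microglobulin (B2m). Peptides are cut by the proteasome, whose inducible subunits Psmb8 and Psmb9 replace constitutive ones, are carried into the endoplasmic reticulum by the Tap1 and Tap2 transporter, are trimmed there by the aminopeptidase Erap1, and are loaded with the help of tapasin (Tapbp). Nlrc5 is a transactivator of class I genes that acts with the Rfx5 complex on their promoters, and interferons are the best known inducers of the whole pathway.

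At 30 h, BRM014-treated cells held more transcript of both heavy chains, both transporter subunits, tapasin and the trimming peptidase than DMSO-treated cells, while the light chain B2m was not called. The largest difference was that of Tap2, at 20.5-fold, followed by Tap1 at 7.02-fold. Their DMSO 30 h libraries held only 15 and 7 counts of Tap2 and 14 and 14 of Tap1. When each library was left out in turn, the log2 fold change ran from 3.76 to 5.17 for Tap2 and from 2.55 to 3.07 for Tap1. The heavy chains, Tapbp and Erap1 were 1.59-fold to 1.90-fold higher. Of the 10 genes, 8 passed the filter on low counts and were tested. Psmb8 and Nlrc5 were not, and Psmb9 passed only through the BRM014 30 h group. Tap2 passed in both BRM014 groups and in neither DMSO group, and Tap1 in every group but DMSO 6 h. In the comparisons with DMSO, Tap2 thus passed only on the side where it was higher, as did Tap1 at 6 h. Both stay in the counts given without Psmb9. In edgeR's quasi-likelihood test with Benjamini-Hochberg adjustment over 11835 genes, 7 of the 8 were called higher at 30 h, where 16.8% of all tested genes were called higher and 35.9% in either direction, and 6 of the other 7 were called without Psmb9. None was called lower, against a background of 19.1%, although B2m had an unadjusted p = 0.0422. DESeq2 called 6 and limma-voom 7. The median log2 fold change of the 8 was 0.92, against -0.0046 over all tested genes. Because the genes were chosen with earlier results of these data known, counts and medians set beside the background, here and below, are descriptions. They are not an independent test of the set.

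At 6 h, 4 of the 8 were called higher (Tap1, Tap2, Tapbp and Erap1), where 9.35% of all tested genes were called higher and 23.8% in either direction. None was called lower by edgeR, by DESeq2 or by limma-voom, nor at an unadjusted p under 0.05, against a background of 14.4%. In the 6 h comparison, Tap1 and Tap2 passed the filter only through BRM014, the side where they were higher. Of the genes that passed in both 6 h groups, only Tapbp and Erap1 were called. H2-K1, H2-D1 and B2m were not, at log2 fold changes of 0.0078, -0.23 and -0.22. The median log2 fold change was 0.22 over the 8 tested genes, against -0.012 over all tested genes. It was 0.43 over the 7 genes other than Psmb9, which had 1 count in each 6 h group. The 6 h calls depended on which libraries entered, and leaving 1 out leaves a group with 1 library, assumed to vary like the others. The count was 0 without replicate 1 of DMSO 6 h or without replicate 2 of BRM014 6 h, 1 without replicate 1 of BRM014 6 h and 2 without replicate 2 of DMSO 6 h. The sizes then ran between 1.18 and 3.12 for Tap1, 1.70 and 2.66 for Tap2, 0.32 and 0.86 for Tapbp and 0.35 and 0.54 for Erap1, above 0 each time. The 30 h count stayed between 6 and 7 when each library was left out in turn.

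**Figure D1:**
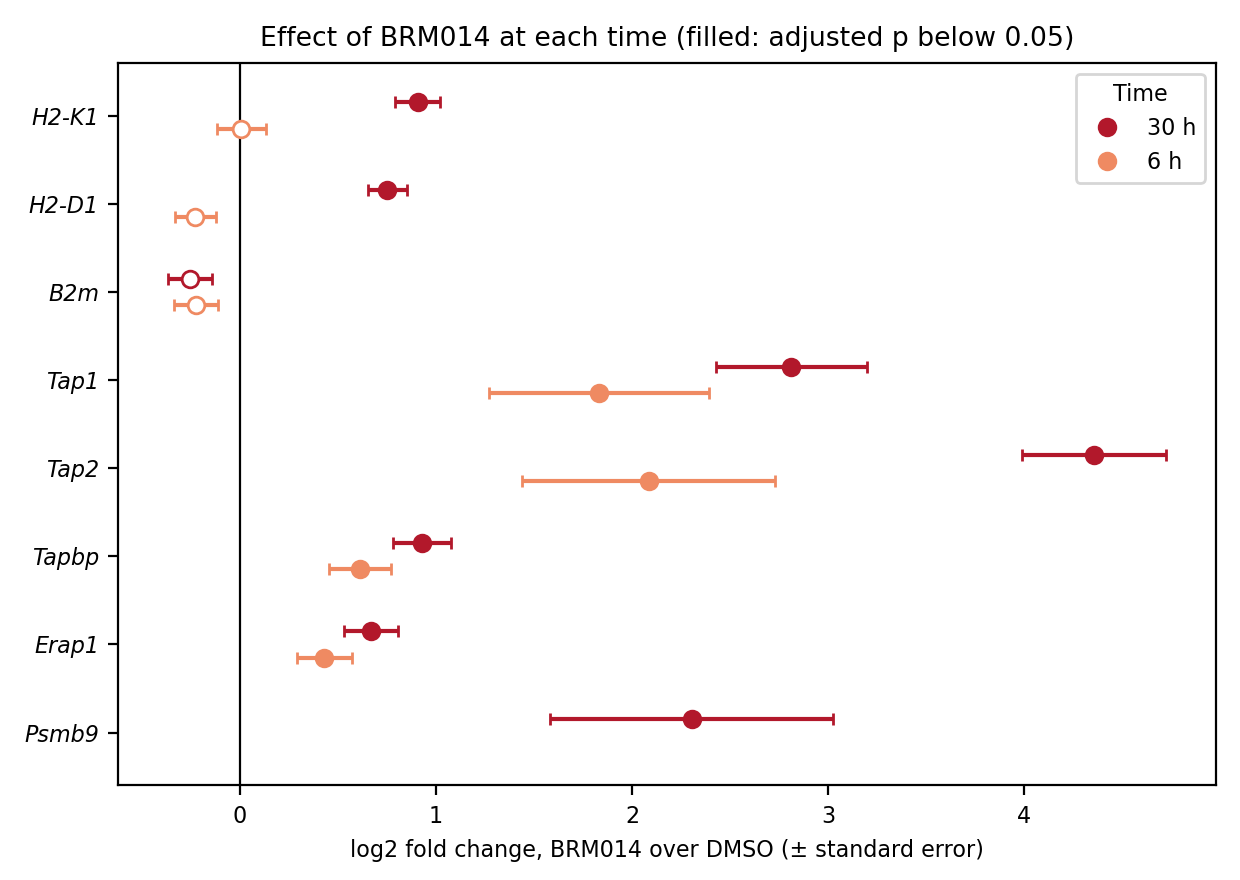
Log2 fold change of BRM014 over DMSO (horizontal axis, ± standard error) for the 8 tested genes, in dark red at 30 h and in orange at 6 h. Filled points had an adjusted p below 0.05. All genes but B2m lie right of 0 at 30 h, with Tap2 farthest at 4.36. No 6 h point is drawn for Psmb9, which had 1 count in each 6 h group.

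The heavy chains were higher in BRM014 at 30 h and not called at 6 h. H2-K1 (Entrez 14972), a classical heavy chain, had 61.5 and 63.0 CPM in BRM014 at 30 h, against 35.9 and 30.5 CPM in DMSO at 30 h. At 6 h it had 16.2 and 15.8 CPM in BRM014 and 16.4 and 15.4 CPM in DMSO. The 4 libraries of 6 h thus lay together, and both BRM014 30 h libraries stood above all others. H2-D1 (Entrez 14964), the other classical heavy chain of this locus measured here, had 92.0 and 98.9 CPM in BRM014 and 58.2 and 55.2 CPM in DMSO at 30 h, and 25.4 and 26.8 CPM in BRM014 and 29.7 and 31.4 CPM in DMSO at 6 h. Its 4 groups did not overlap, with BRM014 above DMSO at 30 h and below it at 6 h.

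The 30 h differences were 0.91 ± 0.11 for H2-K1 (edgeR adjusted p = 4.25e-05) and 0.75 ± 0.10 for H2-D1 (edgeR adjusted p = 6.30e-05). At 6 h they were 0.0078 ± 0.13 for H2-K1 (edgeR adjusted p = 0.975) and -0.23 ± 0.11 for H2-D1 (edgeR adjusted p = 0.144). The effect of BRM014 itself differed between the times, by 0.90 ± 0.17 for H2-K1 (30 h minus 6 h, edgeR adjusted p = 0.00641) and by 0.98 ± 0.14 for H2-D1 (edgeR adjusted p = 0.00138). These were the only 2 of the 8 tested genes called in that comparison, in which 3.89% of all tested genes were called higher, 2.59% lower and 6.47% in either direction. Part of the reads of these genes may not be assigned to 1 heavy chain. Of the 50-base windows of the H2-K1 transcript, 8.79% also occur in another gene, most often H2-D1, and of those of H2-D1 14.3% do, most often H2-Q1. The H2 haplotype of NMuMG is not stated in the labels.

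B2m (Entrez 12010), the light chain of every class I molecule, went the other way in its values. It had 260 and 205 CPM in BRM014 and 287 and 266 CPM in DMSO at 30 h, and 183 and 173 CPM in BRM014 and 214 and 201 CPM in DMSO at 6 h. All 4 BRM014 libraries lay below the DMSO libraries of the same time, but the differences of -0.25 ± 0.11 at 30 h (edgeR adjusted p = 0.0966) and -0.22 ± 0.11 at 6 h (edgeR adjusted p = 0.174) were not called. When each library was left out in turn, the 30 h difference ran from -0.43, without replicate 1 of BRM014 30 h, to -0.082. Transcripts of the 2 heavy chains summed to 0.270 and 0.361 of those of B2m in BRM014 at 30 h, against 0.149 and 0.146 in DMSO at 30 h, on the scale of CPM per kb of transcript. At 6 h this ratio was 0.104 and 0.112 in BRM014 and 0.0973 and 0.105 in DMSO. By these counts the light chain was thus the more abundant transcript in every library, by the smallest margin in BRM014 at 30 h. The shared windows and the unstated H2 haplotype may affect the counts of the heavy chains, by an amount not measured here.

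**Figure D2:**
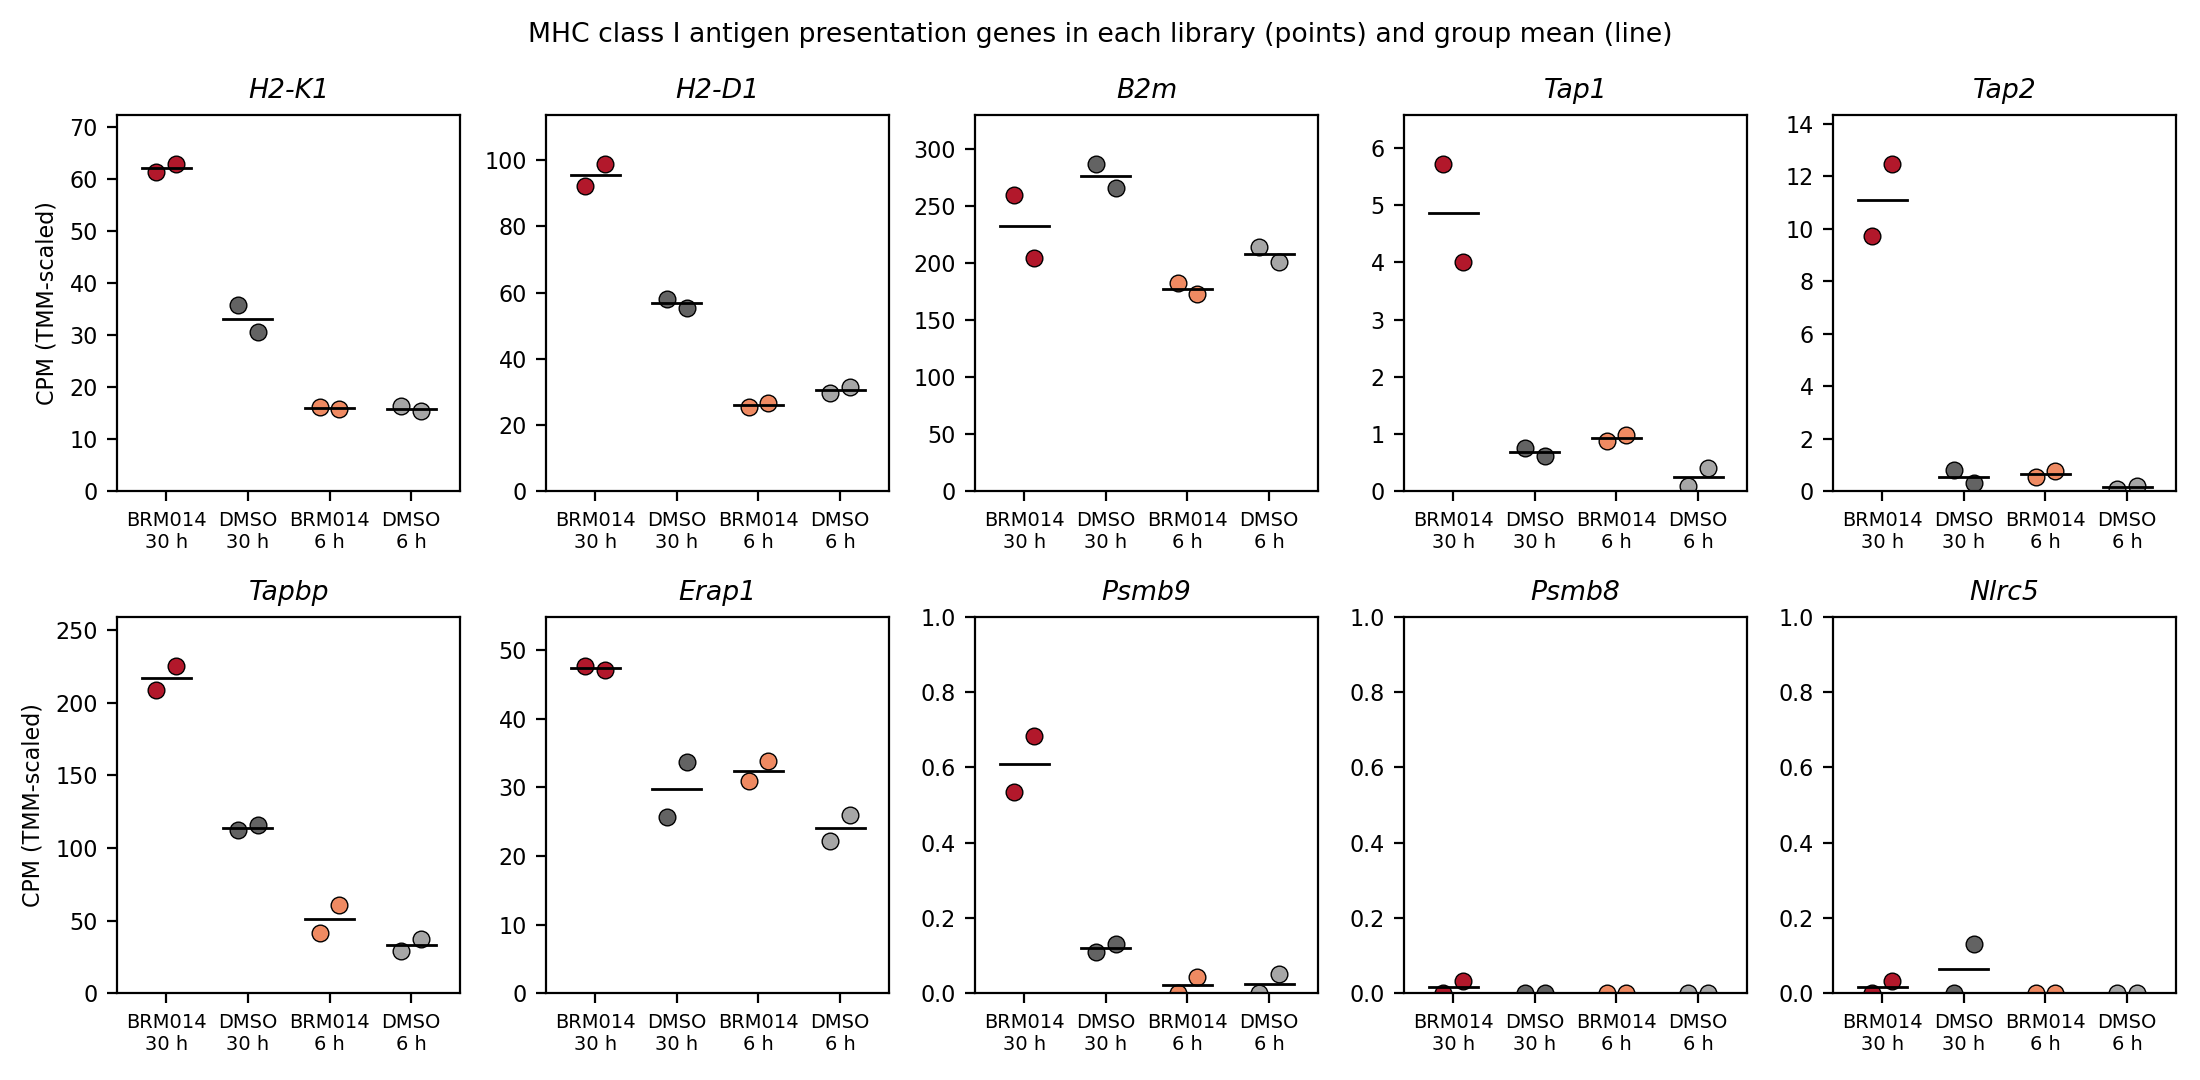
TMM-scaled CPM (vertical axis, from 0, a separate scale for each gene) of the 10 genes in each of the 8 libraries (points) with the group mean (line). Both BRM014 30 h libraries are the highest 2 of the 8 for H2-K1, H2-D1, Tap1, Tap2, Tapbp, Erap1 and Psmb9. For B2m the DMSO 30 h libraries are the highest, and Psmb8 and Nlrc5 lie at or near 0.

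The bases upstream of the heavy chain genes and of B2m are shown because the heavy chains were called at 30 h and B2m was not. They come from the RefSeq promoter table for GRCm38.p6, which held 8 of the 10 genes, and are the 250 bases before the start, read on the strand of the gene. Capitals mark matches, on either strand, to the core of the interferon-stimulated response element (GAAA, any 2 bases, GAAA, bound by IRF and STAT factors), of the gamma-activated site (TTCNNNGAA, bound by STAT dimers) or of the NF-kB site (GGG, any 5 bases, CC). Overlapping matches run into each other. The H2-K1 bases are those of the first of its 2 starts in the table.
H2-K1, chr17:34000348-34000597, minus strand: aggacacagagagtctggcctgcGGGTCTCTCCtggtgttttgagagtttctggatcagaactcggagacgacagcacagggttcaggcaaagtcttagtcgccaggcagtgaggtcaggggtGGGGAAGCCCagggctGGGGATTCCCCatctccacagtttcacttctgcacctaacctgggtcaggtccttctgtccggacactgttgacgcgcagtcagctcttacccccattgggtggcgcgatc
H2-D1, chr17:35262844-35263093, plus strand: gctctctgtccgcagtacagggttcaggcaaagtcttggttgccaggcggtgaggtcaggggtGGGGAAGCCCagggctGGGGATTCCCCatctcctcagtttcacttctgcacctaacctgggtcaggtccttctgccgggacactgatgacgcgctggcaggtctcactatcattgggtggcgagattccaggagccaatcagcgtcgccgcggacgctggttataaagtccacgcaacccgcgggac
B2m, chr2:122147437-122147686, plus strand: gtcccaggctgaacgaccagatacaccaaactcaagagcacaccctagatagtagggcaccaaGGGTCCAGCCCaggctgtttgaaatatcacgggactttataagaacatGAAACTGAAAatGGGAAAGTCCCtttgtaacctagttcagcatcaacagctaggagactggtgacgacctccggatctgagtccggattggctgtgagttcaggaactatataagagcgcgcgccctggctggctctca
The H2-K1 and H2-D1 stretches share an identical run of 47 bases that holds 2 of the capital blocks. B2m has an exact match to the response element core at base -139, and neither heavy chain has an exact match in this window. Both heavy chain stretches hold the letters tttcacttct, which come close to that core on the other strand without matching it. Near matches were not searched for, so a lack of capitals does not mean that a response element is absent. Among the 8 genes in the table, the response element core occurred in the windows of B2m and Erap1, against 3.44% of all 32851 RefSeq promoter windows of 300 bases, from 250 before the start to 50 after it. The gamma-activated core occurred in that of Psmb8, against 8.30%. The NF-kB core occurred in 5 of the 8 (H2-K1, H2-D1, B2m, Tap1 and Psmb9), against 50.8%, and the letters TGACG, the core of the element bound by CREB and ATF factors, in the same 5, against 20.8%. These 5 are not separate sequences. The windows of Tap1 and Psmb9 share 275 bases, with their TGACG match in common, and those of H2-K1 and H2-D1 share the run of 47 bases. The Tapbp window held none of these 4 motifs. A match to such short letters is a description of the sequence and not a measured site.

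The transporter subunits were close to absent in DMSO and rose in BRM014 at both times. Tap1 (Entrez 21354), a subunit of the peptide channel, had 5.72 and 4.01 CPM in BRM014 and 0.761 and 0.613 CPM in DMSO at 30 h, and 0.872 and 0.981 CPM in BRM014 and 0.102 and 0.416 CPM in DMSO at 6 h. BRM014 libraries were above DMSO libraries at both times, with counts of only 2 and 8 in DMSO at 6 h. Tap2 (Entrez 21355), the other subunit, had 9.74 and 12.5 CPM in BRM014 and 0.815 and 0.306 CPM in DMSO at 30 h, and 0.564 and 0.767 CPM in BRM014 and 0.102 and 0.208 CPM in DMSO at 6 h. Its BRM014 6 h libraries overlapped those of DMSO 30 h, and both BRM014 30 h libraries stood more than 10 times above every DMSO library.

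The 30 h differences were 4.36 ± 0.37 for Tap2 (edgeR adjusted p = 1.27e-06) and 2.81 ± 0.39 for Tap1 (edgeR adjusted p = 8.81e-05). At 6 h they were 2.08 ± 0.65 for Tap2 (edgeR adjusted p = 0.0320) and 1.83 ± 0.56 for Tap1 (edgeR adjusted p = 0.0303). The 6 h call of Tap2 was lost when any of the 4 libraries of 6 h was left out, with differences of 1.70 to 2.66, and with limma-voom (adjusted p = 0.0624). That of Tap1 was lost without replicate 1 of DMSO 6 h (1.18, edgeR adjusted p = 0.209) and without replicate 1 or 2 of BRM014 6 h (1.91 and 1.74, edgeR adjusted p = 0.0779 and 0.144). The effect was not called as different between the times for either gene, at 2.27 ± 0.93 for Tap2 (edgeR adjusted p = 0.184) and 0.98 ± 0.76 for Tap1 (edgeR adjusted p = 0.518). Per kb of transcript, Tap2 reached 3.92% and 4.66% of Tapbp in BRM014 at 30 h, against 0.610% and 0.223% in DMSO at 30 h.

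Tap1 and Psmb9 are transcribed away from each other from starts 226 bases apart, so their 300-base windows share 275 bases, and the stretch upstream of Tap1 is shown for both genes, with the same capitals as above.
Tap1, chr17:34187306-34187555, plus strand: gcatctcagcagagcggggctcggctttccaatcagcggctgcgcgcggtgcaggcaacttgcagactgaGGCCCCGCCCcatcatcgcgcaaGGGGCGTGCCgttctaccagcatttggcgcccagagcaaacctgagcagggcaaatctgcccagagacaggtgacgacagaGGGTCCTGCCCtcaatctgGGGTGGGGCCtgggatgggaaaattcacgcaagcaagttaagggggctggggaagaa
All 4 capital blocks of this stretch are matches to the NF-kB core. In the GENCODE M21 annotation of GRCm38, Psmb9 (17:34181987-34187764, minus strand), Tap1 (17:34187553-34197225), Psmb8 (17:34197721-34201454) and Tap2 (17:34203527-34216321) lie side by side within 34335 bases. Their coordinates were not used with the counts, which were made on the older build mm9. Exons of Tap1 and Psmb9 overlap on opposite strands by 212 bases, and the strand setting of the counting is not stated in the labels. Of the 10 genes, 7 lie on chromosome 17, and B2m (2:122147686-122153083), Nlrc5 (8:94434356-94527272) and Erap1 (13:74639568-74693201) do not.

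Within that cluster of neighbouring genes, the inducible proteasome subunits stayed at the floor of detection or just above it. Psmb9 (Entrez 16912), an inducible catalytic subunit, had 10 and 21 counts in BRM014 and 2 and 3 counts in DMSO at 30 h, and 0 and 1 count in both BRM014 and DMSO at 6 h. Both BRM014 30 h libraries were above all others, at 0.535 and 0.684 CPM. The ratio of summed counts at 30 h, per library total, was 5.30, with an exact 95% interval from 2.04 to 17.5 for counting error alone. The edgeR difference was 2.30 ± 0.72 (adjusted p = 0.0238), and it was not called without any 1 of the 4 libraries of 30 h (adjusted p between 0.0510 and 0.147) or with DESeq2 (adjusted p = 0.189). No fold is given at 6 h, where each group held 1 count. Per kb, Psmb9 reached 0.139% and 0.167% of Psmb6, the constitutive subunit it replaces, in BRM014 at 30 h, against 0.0291% and 0.0413% in DMSO at 30 h.

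Psmb8 (Entrez 16913; 17:34197721-34201454), the inducible subunit encoded between Tap1 and Tap2, had 1 count in replicate 2 of BRM014 30 h and 0 counts in the other 7 libraries. Taken as 3 counts of the summed library totals, without TMM factors, a count of 0 allows up to 0.0734 CPM over the DMSO 30 h pair and up to 0.0732 CPM over the DMSO 6 h pair. Nlrc5 (Entrez 434341), the class I transactivator, had 0 and 1 count in BRM014 and 0 and 3 counts in DMSO at 30 h, and 0 counts in all 4 libraries of 6 h. Any change of these genes was not detectable at this depth. Psmb8 was thus near 0 in the same BRM014 30 h libraries in which its neighbours Tap1 and Tap2 had between 107 and 383 counts.

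Tapasin and the trimming peptidase were higher in BRM014 at both times, from levels well above those of the transporter. Tapbp (Entrez 21356; 17:33915899-33929292), which bridges the transporter and the empty heavy chain, had 209 and 225 CPM in BRM014 and 113 and 116 CPM in DMSO at 30 h, and 41.7 and 60.5 CPM in BRM014 and 29.4 and 37.6 CPM in DMSO at 6 h. Its 4 groups did not overlap. Erap1 (Entrez 80898), which shortens peptides in the endoplasmic reticulum, had 47.7 and 47.2 CPM in BRM014 and 25.8 and 33.8 CPM in DMSO at 30 h, and 30.9 and 33.8 CPM in BRM014 and 22.2 and 26.0 CPM in DMSO at 6 h. Its DMSO 30 h libraries overlapped both 6 h groups, and BRM014 30 h was clear of them all.

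Tapbp rose by 0.93 ± 0.15 at 30 h (edgeR adjusted p = 0.000319) and by 0.61 ± 0.16 at 6 h (edgeR adjusted p = 0.0124). Erap1 rose by 0.67 ± 0.14 at 30 h (edgeR adjusted p = 0.00197) and by 0.43 ± 0.14 at 6 h (edgeR adjusted p = 0.0407). The 6 h call of Tapbp was lost without replicate 1 of DMSO 6 h (0.48, edgeR adjusted p = 0.108) or without replicate 2 of BRM014 6 h (0.32, edgeR adjusted p = 0.226). That of Erap1 was lost without any 1 of the 4 libraries of 6 h (0.35 to 0.54), without either BRM014 30 h library and with ribosomal protein scaling (0.47, edgeR adjusted p = 0.124). Neither effect was called as different between the times, at 0.32 ± 0.22 for Tapbp (edgeR adjusted p = 0.458) and 0.24 ± 0.20 for Erap1 (edgeR adjusted p = 0.543). Exons of Erap1 overlap those of Cast on the opposite strand by 834 bases, and those of Tapbp overlap Zbtb22 on the same strand by 88 bases. Noncoding genes on the opposite strand overlap exons of Tapbp (Gm19412, 306 bases), Tap2 (Gm15821, 165 bases, and Gm20496, 140 bases) and Psmb8 (Gm20496, 259 bases). What these overlaps add to or take from the counts was not measured.

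Several of these genes also differed between 30 h and 6 h of DMSO, without the inhibitor. Time in culture and time in DMSO cannot be told apart here. In DMSO, 30 h against 6 h, 4 of the 8 tested genes were called higher, where 18.0% of all tested genes were called higher and 35.2% in either direction. Tapbp rose by 1.77 ± 0.16 (edgeR adjusted p = 1.32e-05), H2-K1 by 1.06 ± 0.12 (edgeR adjusted p = 5.98e-05), H2-D1 by 0.89 ± 0.10 (edgeR adjusted p = 6.31e-05) and B2m by 0.41 ± 0.11 (edgeR adjusted p = 0.0127). The difference was 1.77 ± 0.68 for Tap2 (edgeR adjusted p = 0.0584), 1.38 ± 0.60 for Tap1 (edgeR adjusted p = 0.0868) and 0.31 ± 0.14 for Erap1 (edgeR adjusted p = 0.103). The call of B2m was lost without replicate 2 of DMSO 6 h (edgeR adjusted p = 0.0855) or replicate 1 of DMSO 30 h (edgeR adjusted p = 0.0607). That of Tap2 was gained with library totals (edgeR adjusted p = 0.0482), with no filter (edgeR adjusted p = 0.0180), with DESeq2 (adjusted p = 0.0459) and without replicate 2 of DMSO 30 h (edgeR adjusted p = 0.0168). Tap1 gained one without replicate 2 of DMSO 6 h, at 2.67 (edgeR adjusted p = 0.0362). Erap1 gained one with library totals (0.40, edgeR adjusted p = 0.0454) and without replicate 1 of DMSO 30 h (0.48, edgeR adjusted p = 0.0205). For Psmb9 the count ratio was 5.02, with an exact 95% interval of 0.561 to 237. The DMSO 30 h libraries enter both this comparison and that of BRM014 with DMSO at 30 h.

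In BRM014, 30 h against 6 h, all 8 tested genes were called higher, where 19.6% of all tested genes were called higher and 36.5% in either direction, and all of the other 7 were called without Psmb9. Tap2 rose by 4.04 ± 0.35 (edgeR adjusted p = 5.94e-06), Tap1 by 2.37 ± 0.36 (edgeR adjusted p = 0.000360) and Tapbp by 2.09 ± 0.16 (edgeR adjusted p = 2.00e-06). H2-K1 rose by 1.96 ± 0.12 (edgeR adjusted p = 4.36e-07) and H2-D1 by 1.87 ± 0.10 (edgeR adjusted p = 1.73e-07), so both heavy chains reached more than 3 times their 6 h level. Erap1 rose by 0.55 ± 0.14 (edgeR adjusted p = 0.00703) and B2m by 0.38 ± 0.11 (edgeR adjusted p = 0.0168). Without replicate 1 of BRM014 30 h, the B2m difference was 0.20 (edgeR adjusted p = 0.209), and it was not called without either BRM014 6 h library (edgeR adjusted p = 0.0721 and 0.123). The Erap1 call was lost without replicate 1 of BRM014 6 h (edgeR adjusted p = 0.0795). The Psmb9 ratio was 27.7, with an exact 95% interval of 4.61 to 1128, against 1 count in BRM014 at 6 h.

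The other subunits of the inducible proteasome were expressed, unlike Psmb8 and Psmb9. Psmb10, the third inducible catalytic subunit, had 23.1 and 25.2 CPM in BRM014 and 17.1 and 13.3 CPM in DMSO at 30 h, and 16.5 CPM in both BRM014 libraries and 18.8 and 16.5 CPM in DMSO at 6 h. Psme2, a subunit of the interferon-inducible proteasome activator, had 24.9 and 19.8 CPM in BRM014 and 14.5 and 13.2 CPM in DMSO at 30 h. Both rose at 30 h, Psmb10 by 0.68 ± 0.15 (edgeR adjusted p = 0.00345) and Psme2 by 0.69 ± 0.16 (edgeR adjusted p = 0.00404). The third gene of this list, the partner subunit Psme1, was at 0.25 ± 0.10 at 30 h (edgeR adjusted p = 0.0755) and fell by 0.37 ± 0.11 at 6 h (edgeR adjusted p = 0.0247). That 6 h call was lost with library totals, with ribosomal protein scaling, and without replicate 1 of DMSO 6 h or either BRM014 6 h library. The list median was 0.68 at 30 h and -0.13 at 6 h. Per kb, Psmb10 reached 7.12% and 8.98% of Psmb7, the subunit it replaces, in BRM014 at 30 h, against 5.97% and 5.10% in DMSO at 30 h.

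**Figure D3:**
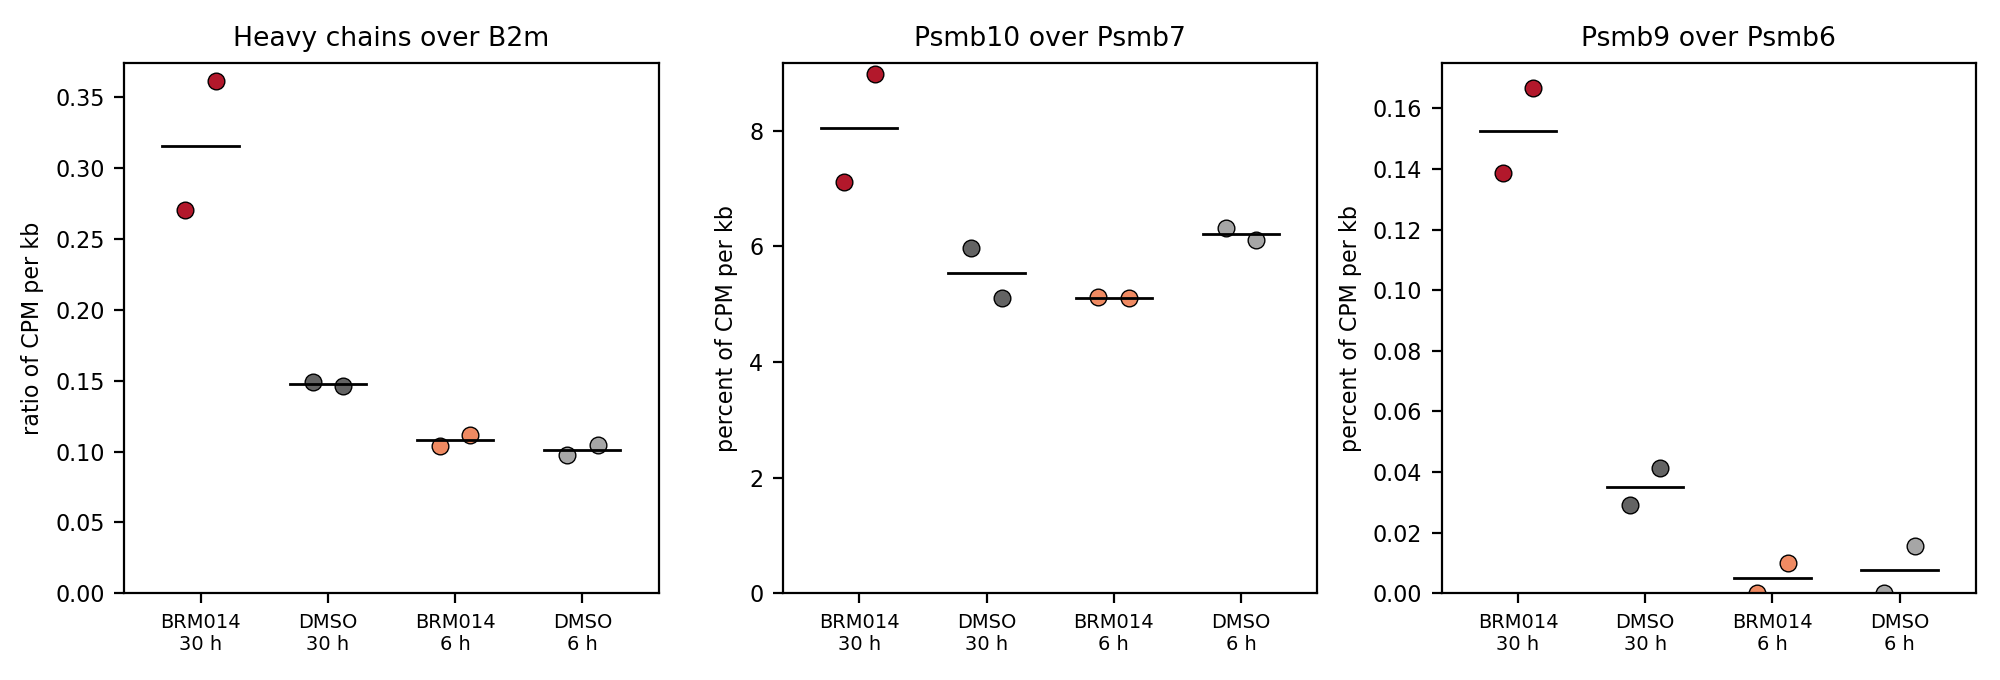
Ratios of CPM per kb of transcript in each of the 8 libraries (points) with the group mean (line), on linear axes from 0: the 2 heavy chains over B2m, Psmb10 over Psmb7 in percent and Psmb9 over Psmb6 in percent. In all 3 panels both BRM014 30 h libraries lie above the other 6, at 0.270 and 0.361 for the heavy chains over B2m.

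The constitutive catalytic subunits Psmb5, Psmb6 and Psmb7 were not called at either time. At 30 h their log2 fold changes were 0.11, 0.21 and 0.15, with 0 of 3 called by edgeR, by DESeq2 and by limma-voom and 0 at an unadjusted p under 0.05. Of the other 11 core subunits, 0 were called at 30 h by any of these tools or at an unadjusted p under 0.05, with a median log2 fold change of 0.010. At 6 h, 3 of the 11 were called higher, where 9.35% of all tested genes were called higher: Psma1 by 0.41, Psma5 by 0.38 and Psmb4 by 0.31, named here after their values were seen. That count was 1 when any 1 of the 4 libraries of 6 h was left out and 5 with library totals or no filter, or without either DMSO 30 h library.

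Chaperones of the endoplasmic reticulum that fold and load class I molecules were lower or not called. At 30 h, 3 of 7 were called lower, where 19.1% of all tested genes were called lower. These were Bcap31, an export receptor (-0.40 ± 0.10, edgeR adjusted p = 0.00883), Pdia3, the disulfide isomerase of the loading complex (-0.36 ± 0.10, edgeR adjusted p = 0.0110), and Canx, or calnexin (-0.28 ± 0.09, edgeR adjusted p = 0.0226). The count was 0 with ribosomal protein scaling and without replicate 2 of BRM014 30 h. Of the 3, the call of Pdia3 was also lost without replicate 1 of DMSO 30 h, and that of Canx with the 4 libraries of 30 h alone and without replicate 2 of DMSO 30 h, replicate 1 of BRM014 30 h or replicate 1 of BRM014 6 h. At 6 h, 5 of 7 were called lower, where 14.4% of all tested genes were called lower: Hspa5 by -0.53, the tapasin relative Tapbpl by -0.61, Pdia3 by -0.36, Calr (calreticulin) by -0.36 and Canx by -0.28. That count was 2 with library totals, 1 with ribosomal protein scaling, and 0 to 3 when a library of 6 h was left out. The list median was -0.17 at 30 h and -0.36 at 6 h.

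Of 9 cytosolic and other peptidases that make or destroy peptides, 2 rose and 1 fell at 30 h, where 16.8% of all tested genes were called higher and 19.1% lower. Npepps, puromycin-sensitive aminopeptidase, rose by 0.29 (edgeR adjusted p = 0.0359), Thop1, an oligopeptidase, rose by 0.37 (edgeR adjusted p = 0.0149), and Blmh, bleomycin hydrolase, fell by 0.46 (edgeR adjusted p = 0.00199). The call of Npepps was lost without any 1 of the 4 libraries of 30 h and that of Thop1 without replicate 2 of either 30 h group, and 1 gene was called without replicate 2 of BRM014 30 h. At 6 h Npepps alone was called, against backgrounds of 9.35% higher and 14.4% lower, at 0.55 (edgeR adjusted p = 0.00117), and 3 were called with library totals. The list median was 0.099 at 30 h and 0.15 at 6 h.

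Nonclassical class I and related genes, which present peptides or lipids to specialised lymphocytes or carry other cargo, moved with the classical heavy chains for the most part at 30 h. Of 18 listed, 17 were used (H2-Q4 was not analysed here) and 11 were tested. At 30 h, 6 were called higher and 2 lower, against backgrounds of 16.8% and 19.1%, with a list median of 0.81. Of these, H2-Q6 (higher) and Fcgrt (lower) passed the filter only through the group in which they were high, and of the other 9, 5 were called higher and 1 lower. H2-T23, which presents leader peptides of other class I chains, had 10.4 and 12.3 CPM in BRM014 and 5.65 and 5.25 CPM in DMSO at 30 h, and 2.16 and 2.47 CPM in BRM014 and 4.12 and 3.53 CPM in DMSO at 6 h. BRM014 was thus above DMSO at 30 h and below it at 6 h, without overlap at either time. It rose by 1.06 ± 0.20 at 30 h (edgeR adjusted p = 0.000952) and fell by 0.72 ± 0.23 at 6 h (edgeR adjusted p = 0.0382), and the 2 effects differed by 1.78 ± 0.30 (edgeR adjusted p = 0.00351). The 6 h call was lost under 9 of the alternatives, DESeq2 (adjusted p = 0.0702) and limma-voom (adjusted p = 0.0829) among them.

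Among the rest of this list, H2-Q6 rose by 2.55 ± 0.53 (edgeR adjusted p = 0.00225), H2-Q1 by 1.44 ± 0.32 (edgeR adjusted p = 0.00315) and H2-T10 by 0.81 ± 0.18 (edgeR adjusted p = 0.00293) at 30 h. H2-Q6, which passed the filter only through BRM014 30 h, had 25 and 39 counts there and 3 and 6 counts in DMSO at 30 h. H2-M3 (1.12 ± 0.25) and H2-Q10 (1.02 ± 0.28) were called too, and are named after their values were seen. Reads of the H2-Q and H2-T genes may be shared with each other or with the heavy chains, since some windows of H2-D1 also occur in H2-Q1, and the shared part was not measured for the class Ib genes. The lipid-presenting Cd1d1 fell by 1.30 ± 0.32 at 30 h (edgeR adjusted p = 0.00621) and by 2.10 ± 0.38 at 6 h (edgeR adjusted p = 0.00131). Fcgrt, the neonatal Fc receptor, which also pairs with B2m, fell by 2.43 ± 0.53 at 30 h (edgeR adjusted p = 0.00299). Without replicate 2 of BRM014 30 h the calls of Cd1d1 (edgeR adjusted p = 0.0826) and Fcgrt (edgeR adjusted p = 0.0589) were lost, and 5 of the list were called. Of 9 class II genes, 1 was tested and not called at 30 h, H2-DMa, and Ciita, the class II transactivator, was at 0 in all 8 libraries with H2-Aa, H2-Ab1 and H2-Ob.

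**Figure D4:**
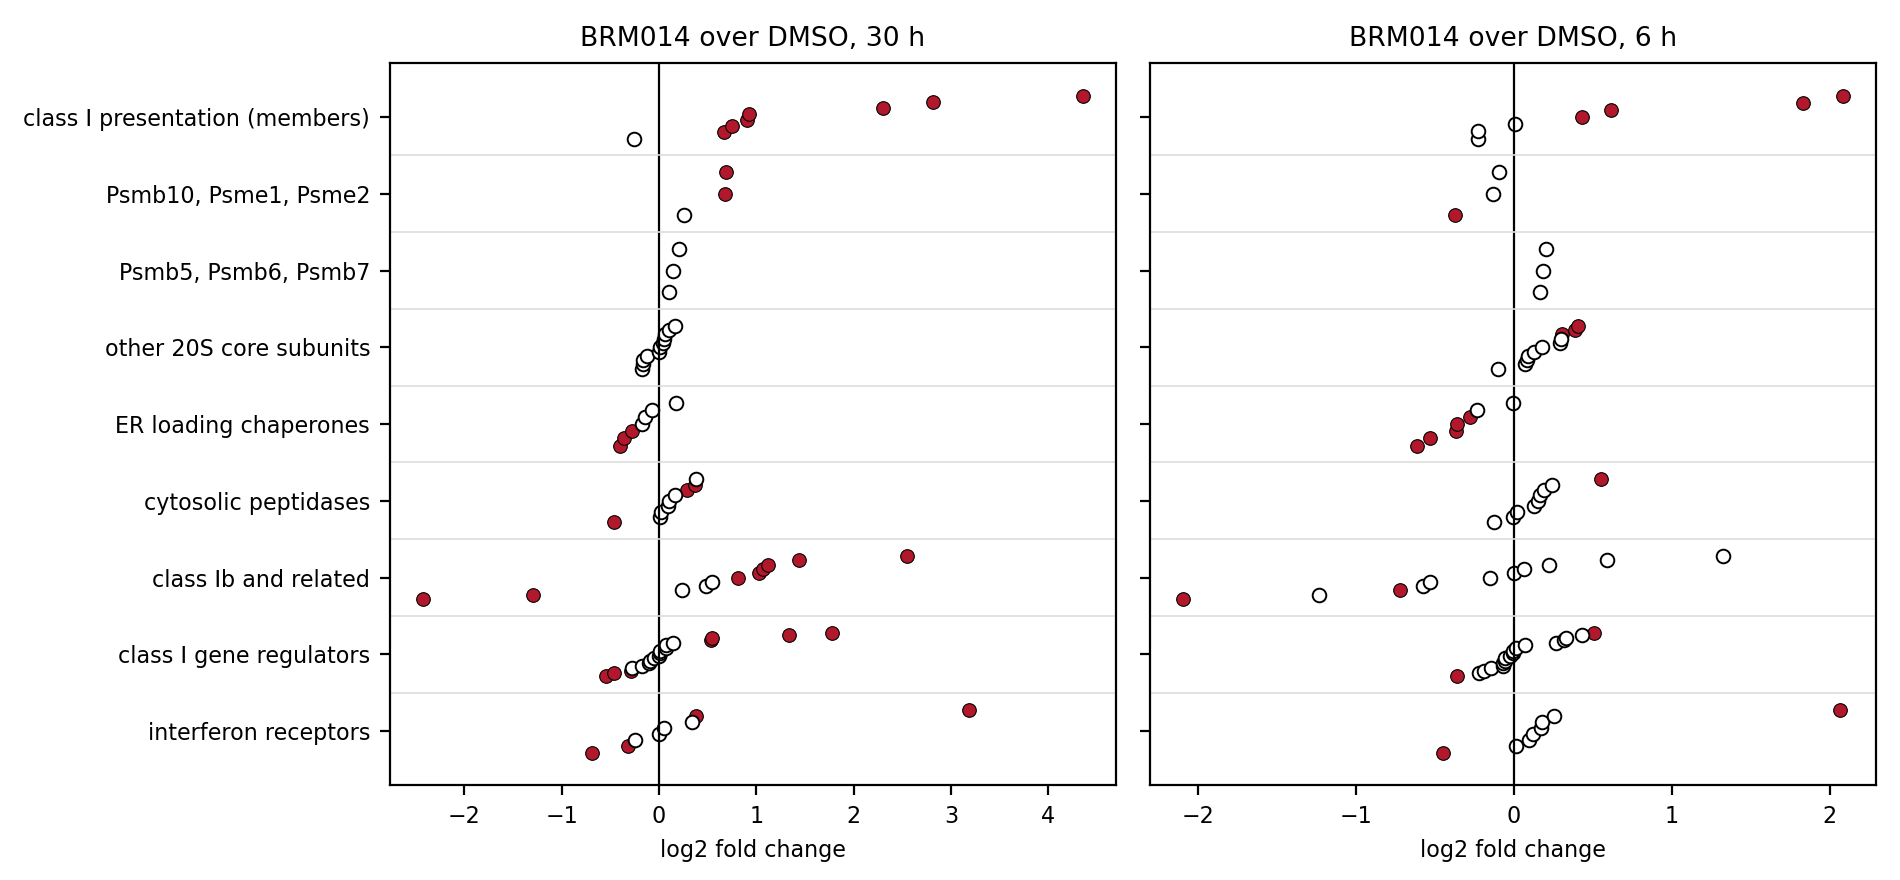
Log2 fold change of BRM014 over DMSO (horizontal axis) at 30 h (left) and at 6 h (right) for each tested gene of the class I set and of 8 lists around it. Filled points had an adjusted p below 0.05. At 30 h, 7 of 8 genes of the class I set and 6 of 11 of the class Ib list are filled to the right of 0, and no point of the core proteasome lists is filled. Psmb9 and H2-Q6, both among the filled points, passed the filter only through BRM014 at 30 h.

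Regulators of class I genes were called about as often as genes in general. Of 18 listed and tested, 4 were called higher and 3 lower at 30 h, where 16.8% of all tested genes were called higher and 19.1% lower, with a list median of 0.0024 against -0.0046 over all tested genes. Irf1, an interferon-inducible activator of class I genes, had 145 and 186 CPM in BRM014 and 45.1 and 51.8 CPM in DMSO at 30 h, and 37.9 and 49.6 CPM in BRM014 and 36.5 and 33.8 CPM in DMSO at 6 h. Rfx5, a subunit of the factor that binds class I and class II promoters, had 60.7 and 48.9 CPM in BRM014 and 21.2 and 22.2 CPM in DMSO at 30 h, and 12.2 and 15.2 CPM in BRM014 and 9.05 and 11.3 CPM in DMSO at 6 h. For both genes the BRM014 30 h libraries were more than 2 times above every other library. Irf1 rose by 1.77 ± 0.15 (edgeR adjusted p = 1.11e-06) and Rfx5 by 1.33 ± 0.15 (edgeR adjusted p = 1.85e-05) at 30 h. The edgeR adjusted p at 6 h was 0.150 for Irf1 (0.32 ± 0.15) and 0.0843 for Rfx5 (0.43 ± 0.17). The effect differed between the times by 1.46 ± 0.21 for Irf1 (edgeR adjusted p = 0.00105) and by 0.90 ± 0.23 for Rfx5 (edgeR adjusted p = 0.0311).

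Other regulators moved less. At 30 h the NF-kB subunit gene Nfkb1 rose by 0.55 ± 0.10 (edgeR adjusted p = 0.000628) and Irf9, a DNA-binding subunit of an interferon-activated complex, by 0.54 ± 0.19 (edgeR adjusted p = 0.0414), a call lost without any 1 of 5 libraries and with the 4 libraries of 30 h alone. Nfyb, a CCAAT-binding subunit, fell by 0.55 (edgeR adjusted p = 0.00280) and Ezh2, a histone methyltransferase that represses class I genes in some human and mouse tumours, fell by 0.47 (edgeR adjusted p = 0.00171). The third gene called lower was Creb1, which binds the CRE, at -0.29 (edgeR adjusted p = 0.0479), named after its value was seen. At 6 h 1 gene of the list was called higher and 1 lower, against backgrounds of 9.35% and 14.4%. Nfkb1 also rose at 6 h, by 0.51 (edgeR adjusted p = 0.00177).

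Of the interferon genes only Ifnb1 and Ifng were listed, and neither was detected beyond single counts. Ifnb1 had 0 counts in all 8 libraries, and Ifng had 1 count in each of 1 BRM014 30 h and 1 DMSO 30 h library. Of the 8 tested genes of interferon receptors and their signalling, 2 rose and 2 fell at 30 h, where 16.8% of all tested genes were called higher and 19.1% lower. The feedback inhibitor Socs1 had 13.3 and 17.8 CPM in BRM014 and 2.34 and 1.18 CPM in DMSO at 30 h, and 17.3 and 15.05 CPM in BRM014 and 4.22 and 3.48 CPM in DMSO at 6 h. Its BRM014 libraries were above all DMSO libraries, and it rose by 3.18 ± 0.27 at 30 h (edgeR adjusted p = 1.50e-06). The interferon gamma receptor chain Ifngr1 fell by 0.69 ± 0.10 (edgeR adjusted p = 0.000139), its partner Ifngr2 fell by 0.32 ± 0.10 (edgeR adjusted p = 0.0264), and the type I receptor chain Ifnar1 rose by 0.38 ± 0.10 (edgeR adjusted p = 0.00732). The call of Ifngr2 was lost with ribosomal protein scaling (-0.23, edgeR adjusted p = 0.248) and without any 1 of 3 libraries.

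**Figure D5:**
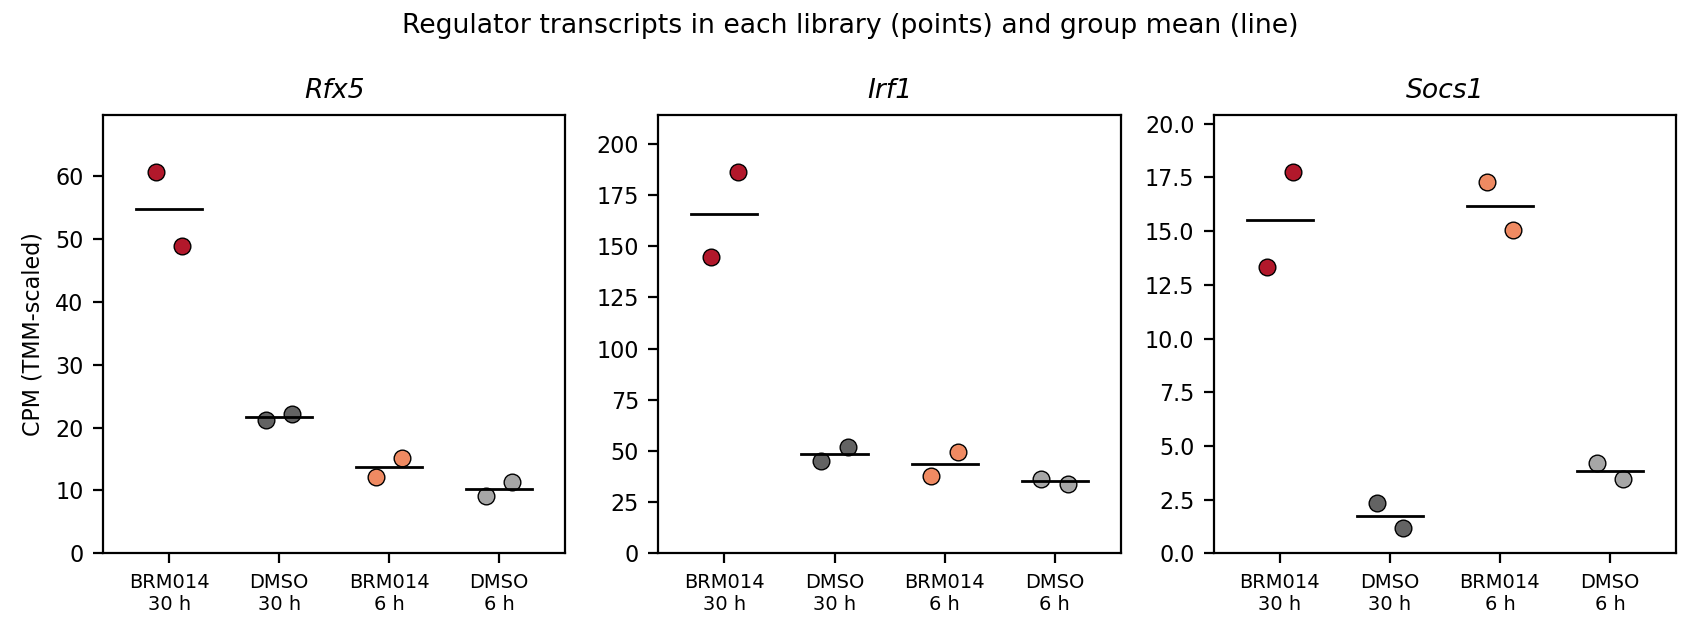
TMM-scaled CPM (vertical axis, from 0, a separate scale for each gene) of 3 regulators in each of the 8 libraries (points) with the group mean (line). Irf1 and Rfx5 are highest in BRM014 at 30 h, and Socs1 is high in BRM014 at both times.

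The genes most like the class I set were found by Pearson's r over the 8 libraries with the mean of the 8 tested genes, each centred and scaled on the log2 CPM scale. The 5 highest were Rfx5 (r = 0.995), Gbp2b (r = 0.995), Osbpl9 (r = 0.995), Dtx3l (r = 0.993) and Gstp1 (r = 0.993), and the 8 libraries share their 4 conditions. They were picked for likeness to a mean over these same libraries. A rise in BRM014 at 30 h thus follows from the pick, and their p-values are no separate evidence. Gbp2b had a mean of 8.03 CPM in BRM014 and 1.02 CPM in DMSO at 30 h, and 0.269 CPM in BRM014 and 0.155 CPM in DMSO at 6 h. It rose by 2.97 ± 0.31 at 30 h (edgeR adjusted p = 7.20e-06), more than any of the class I set but Tap2. Osbpl9 changed least of the 5, at 0.25 ± 0.09 (edgeR adjusted p = 0.0489), a call lost when any 1 of the 8 libraries was left out, with ribosomal protein scaling, with no filter, with the 4 libraries of 30 h alone and with DESeq2.

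Replicates correlated with r = 0.990 to 0.994 and differed beyond counting noise. Of 10 epithelial markers, Cdh1, Krt8, Krt18 and Krt19 were expressed and Epcam, Cldn3 and Cldn7, which mark most epithelia, were at 0 in all 8 libraries. The rest were near the floor, with at most 14 counts in a group for Krt7 and at most 1 for Cldn4 and Esrp1. The list summed to 7432 to 8666 CPM in BRM014 and 5552 to 5716 CPM in DMSO at 30 h, and its part in the class I result was not tested. The 4 expressed markers did not move together. At 30 h Cdh1, Krt8 and Krt18 were called higher and Krt19 lower, at 652 and 663 CPM in BRM014 against 1202 and 1196 CPM in DMSO, and at 6 h Krt19 alone was called, lower, at 280 and 403 CPM in BRM014 against 668 and 776 CPM in DMSO. In bulk RNA, more cells of a type and more RNA per cell cannot be told apart. Few markers of immune and endothelial cells were detected. The lists for T and natural killer cells, leukocytes in general and endothelium each summed to at most 0.489 CPM in any library, with Cd8a, Nkg7 and Cd52 at 0 in all 8. The myeloid list summed to 73.6 to 79.0 CPM in BRM014 and 177 to 195 CPM in DMSO at 30 h, nearly all of it Cd14, with Adgre1 and Itgax at 0 in all 8. The macrophage marker Cd68 was detected in all 8, at 2.35 and 2.09 CPM in BRM014 and 5.98 and 3.72 CPM in DMSO at 30 h, and 3.64 and 5.16 CPM in BRM014 and 6.96 and 7.95 CPM in DMSO at 6 h. Both Cd14 and Cd68 were called lower at 30 h, and their part in the class I result was not tested.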

How the data were processed

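The authors deposited a table of raw counts per gene, named by Entrez ID and symbol. Per the submitters' processing notes they used the mouse build mm9, Subread, SAMtools 0.1.19 and featureCounts. The strand setting, the annotation and the remaining versions are not stated there. Per the labels' protocols, stranded total RNA libraries were sequenced as single reads of 50 bases. The 4 groups of 2 libraries (17859693 to 29955366 counts) were fitted together in edgeR 4.0.16 under R 4.3.3 by the quasi-likelihood test, after filterByExpr (minimum count 10; 11835 of 21240 genes, 55.7%), with TMM factors, group means, 4 residual degrees of freedom, 2-sided tests and Benjamini-Hochberg adjustment over all tested genes within each of 5 comparisons, at a threshold of 0.05. The biological coefficient of variation was 9.30%. A standard error is the size of the log2 fold change divided by the square root of F. Intervals of count ratios are exact binomial intervals, and these and floors of 3 counts cover counting error only. Lengths are those of the longest protein-coding GENCODE M21 transcript, and promoters are from RefSeq. The members and lists were chosen with earlier results of these data known. Genes named were the 10 members, at most the 6 of a list with the smallest p among those called, and the 5 most like the members' mean; others are marked. Alternatives were other scalings, filters, DESeq2 1.42.0, limma-voom (limma 3.58.1), the replicate number as a block, fits of 4 libraries, and leaving out each library. Some genes of the lists are not reported here.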

Additional observations from a re-analysis of the deposited data

Results flagged for a closer look

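The effect of BRM014 on the 2 classical heavy chains differed between the times by a test of the difference itself. For H2-K1 the effect at 30 h exceeded that at 6 h by 0.90 ± 0.17 on the log2 scale (edgeR adjusted p = 0.00641), and for H2-D1 by 0.98 ± 0.14 (edgeR adjusted p = 0.00138). Both differences kept an adjusted p below 0.05 when any 1 of the 8 libraries was left out, with a highest edgeR adjusted p of 0.0475 for H2-K1 and 0.0132 for H2-D1. Their sizes then ranged between 0.75 and 1.03 for H2-K1 and between 0.91 and 1.03 for H2-D1.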

How the results depend on the processing

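Over 624 recomputed values of the tested genes, 579 kept direction and side of the threshold, 28 lost a call, 9 gained one and 8 changed sign, none of these 8 being called. Psmb9 at 6 h and its difference between times are not among them, with 1 count in each 6 h group. The stricter filter (1 CPM in at least 4 libraries) left 5 of the genes, without Tap1, Tap2 and Psmb9, and called 4 of them at 30 h, 2 at 6 h and 5 for BRM014 at 30 h against 6 h, by its construction. Leaving out 1 library gave 6 to 7 calls at 30 h, 0 to 4 at 6 h, 2 for the difference between times, 4 to 5 for time in DMSO and 6 to 8 for time in BRM014. Without DMSO 6 h replicate 2 or BRM014 6 h replicate 1, the 6 h difference was -0.043 and -0.0080 for H2-K1 (range over all libraries left out -0.043 to 0.088). The B2m difference between times was 0.014 with ribosomal protein scaling and -0.21 to 0.14 without a library, above 0 without each of 4. Without DMSO 6 h replicate 2 that of Tap1 was -0.30 (range -0.30 to 1.63). The causes were not tested. The labels give no shared batch or day behind a replicate number, so the numbers were not taken as pairs in the main fit. The r between deviations of same-numbered libraries was above 0.1 in 5 of the 6 pairs of groups and 0.011 in the other (highest 0.20). All were thus above 0, and what same-numbered libraries may share is not known. With the replicate number as a block, 8 of the 8 genes were called at 30 h, with B2m lower (-0.26, edgeR adjusted p = 0.0333), 4 at 6 h, 2 for the difference, 4 for time in DMSO and 8 for time in BRM014. Over all genes, the share of higher among called genes was 54.9% with library totals against 39.3% at 6 h, 58.1% with ribosomal protein scaling against 46.8% at 30 h and 72.4% against 60.1% for the difference. It was 65.9% and 66.5% with these scalings against 51.2% for time in DMSO, and 75.6% with ribosomal protein scaling against 53.7% for time in BRM014, where that scaling moved the median gene by 0.12. The count of genes called at 6 h was 2815 and as low as 1415 without a library. For the difference it was 766, with 409 under ribosomal protein scaling, 1309 with no filter, 1237 with the block and 351 at the lowest without a library. For time it was 4167 in DMSO and 4317 in BRM014, at the lowest 2331 and 2227 without a library. Low counts limit Psmb8, Psmb9 and Nlrc5, and the transporter at 6 h.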
